A study of Mus musculus with 16 samples.

Results

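The 9 genes described here encode inflammatory cytokines and chemokines (Il6, Il1a, Tnf, Ccl3 and Cxcl10), the prostaglandin-forming enzyme Ptgs2, and 3 proteins made by activated cells (Tnfaip6, Cd83 and Plaur). They were chosen by symbol, with earlier results of these data known, and each symbol matched 1 Ensembl identifier among the 6288 genes of the table used here. All 9 passed the filter on low values that left 6110 genes to be tested, which asked for 4 or more of the 16 libraries with a normalized count of 10 or more. Il1a passed through 5 WT libraries and no Tet2-deficient one, and Tnfaip6 through 8 WT and 2 Tet2-deficient libraries, so both passed on account of the genotype in which they were high.

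Bulk RNA sequencing was done on CD45-positive bone marrow cells enriched for LSK cells, the fraction that lacks lineage markers and carries Kit and Sca1 and in which haematopoietic stem cells and multipotent progenitors lie. The WT donors were C57Bl/6J mice and the mutant donors were Tet2-deficient (Tet2-/-) mice, all aged 3 to 4 months, with no other allele or agent named. The Tet2 enzyme oxidises methylcytosine, a first step towards DNA demethylation. All marrow was harvested in a chamber at 3% O2, called physioxia here, and the enriched cells were then divided, one portion staying there and the other standing in ambient air (about 21% O2) for 6 hours before RNA extraction. Each genotype at each oxygen level made 1 of 4 groups, and each group held 4 libraries that the labels call biological replicates. They do not say whether a replicate is 1 mouse or a pool, and p-values rest on the spread between these samples. The main fit took the 16 libraries as independent. Since the enriched cells were divided, genotype differences in air and in physioxia are not independent replications of each other. The deletion is not said to be limited to blood cells, and both sexes were used as donors.

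Inflammatory cytokines are secreted by activated immune cells and act on neighbouring cells through receptors. Many of their genes are switched on by the transcription factor NF-kB after a microbial or cytokine stimulus, and their messengers are short-lived. Tnf and Il1a products themselves activate NF-kB, while Il6 and several chemokines are among the targets. Blood stem and progenitor cells carry receptors for several of these factors and can also produce some of them, and Tet2 has been described in macrophages and dendritic cells as a factor that limits Il6 expression.

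Between 7.77 and 15.7 M reads per library were in the table, given as normalized counts (reads divided by 1 size factor per library). The choice of its genes is not explained, and most of them differed between the genotypes, so shares of genes called describe this table and not the transcriptome. Tet2 itself stood at 506 to 626 normalized counts in the Tet2-deficient air libraries and at 650.0 to 993 in WT air, and at 447 to 529.7 against 592 to 812 in physioxia. The log2 differences of Tet2 were −0.61 ± 0.14 in air and −0.59 ± 0.14 in physioxia (± SE of the fit, limma adjusted p = 0.00223 and 0.00267). Its count covers exons outside any deleted part, so it checks the labels only in part. Replicates 3 and 4 of Tet2-deficient air stood apart from replicates 1 and 2: Chuk, a kinase subunit upstream of NF-kB, was at 1252 and 1229 against 471 and 369, while all 8 physioxia libraries lay between 928 and 1323. Same-numbered Tet2-deficient air and physioxia libraries deviated together over genes for replicate 1 (r = 0.32) and not for replicates 2 to 4 (r from −0.27 to 0.04), and Tet2-deficient air replicate 3 was most like physioxia replicate 2 (r = 0.50). Whether these libraries carry the right labels was not tested, and this bears on each value of Tet2-deficient air and each oxygen difference in these cells. Of the stem and progenitor markers, Kit, Procr, Slamf1 and Hlf were in the table and above 0 in every group; Ly6a, Cd34 and Ptprc were not analysed here.

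In Tet2-deficient cells most of the inflammatory genes were lower than in WT cells, at either oxygen level. In air, 7 of the 9 members were lower (77.8%), among 37.4% lower over all genes tested, and 1 was higher (42.1% higher over all genes). In physioxia 8 were lower (88.9%), among 33.6% of all genes, and 0 were higher (35.9% of all genes). The median log2 difference of the members was −1.63 in air and −1.88 in physioxia, beside 0.24 and 0.06 over all genes tested. Counted in either direction, 8 of 9 members (88.9%) were called at each oxygen level, beside 79.5% of all genes in air and 69.4% in physioxia. The members were chosen with earlier results of these data known, and Il1a and Tnfaip6 passed the filter mainly or only through WT libraries. The excess of lower members is therefore a description and not a test. Ranges that did not overlap were seen for 6 members lower and 1 higher in air (35.5% and 35.2% of all genes) and for 8 lower and 0 higher in physioxia (28.0% and 29.7%). These values come from limma, 1 fit on log2(normalized count + 1) over the 16 libraries, two-sided, with an adjusted p under 0.05 over the 6110 genes as the call. Fold changes on this scale understate the change of low genes. With both Tet2-deficient air libraries 3 and 4 left out, and likewise with both WT air libraries 1 and 2 left out, 6 members were lower and 1 higher in air. In bulk libraries fewer cells that express a gene and less RNA per cell cannot be told apart.

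**Figure D1:**
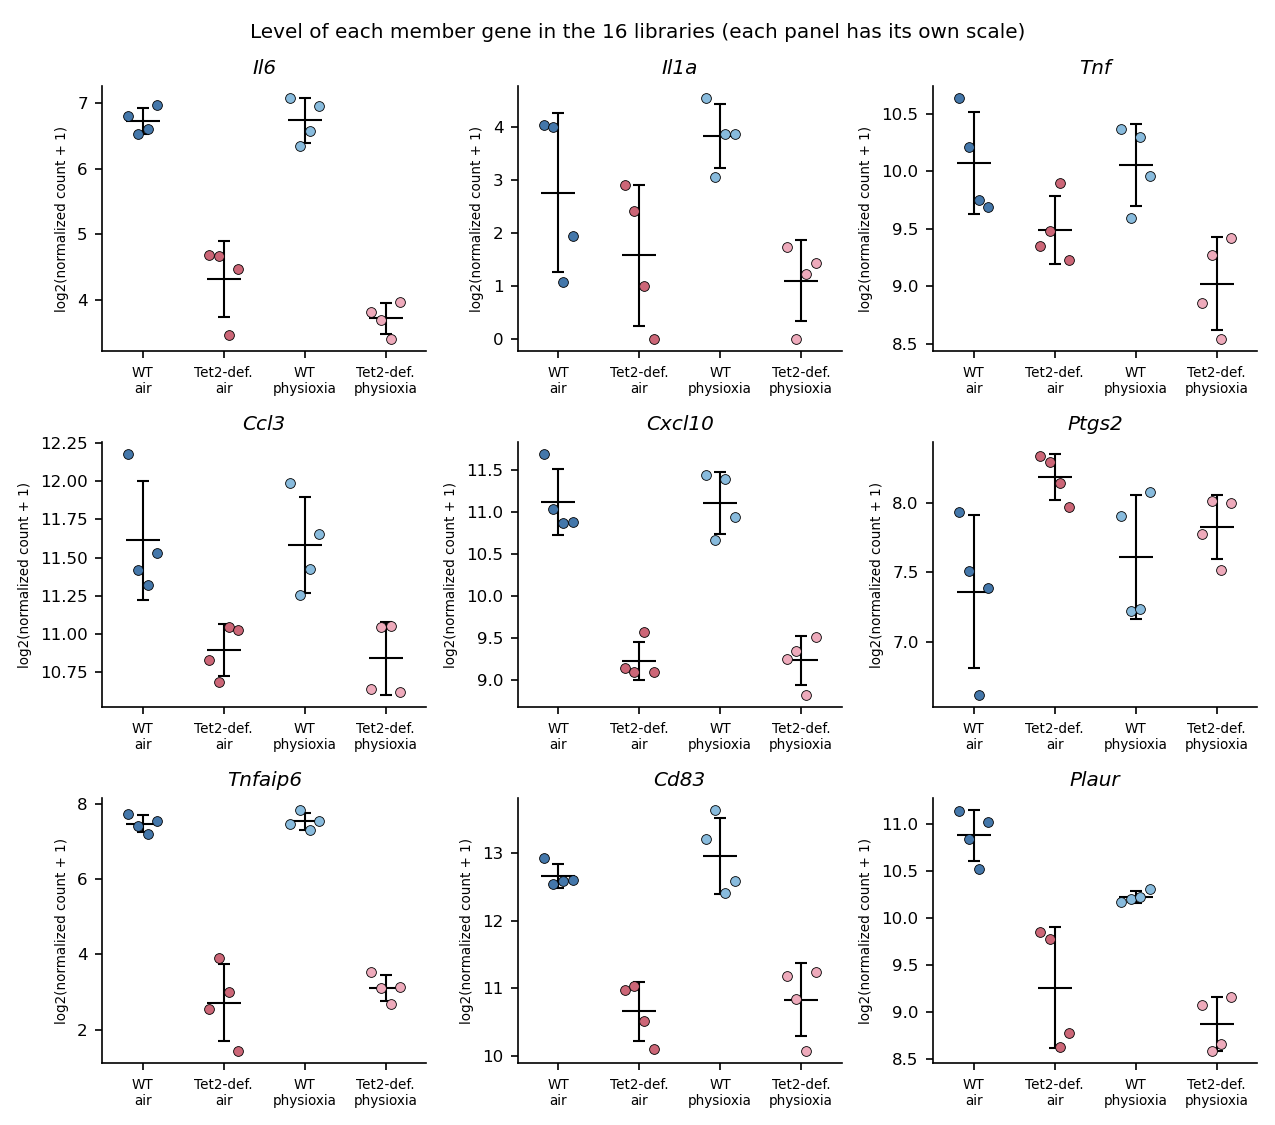
Level of each of the 9 genes as log2(normalized count + 1) on the vertical axis, 1 panel per gene with its own scale, in the 4 groups. Points are the 4 libraries of a group in replicate order from left to right, horizontal marks are means and bars are SD. Tnfaip6, Il6, Cxcl10, Cd83, Plaur and, by a smaller difference, Ccl3 separate the genotypes fully at each oxygen level, whereas Ptgs2 is higher in Tet2-deficient cells in air.

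**Figure D2:**
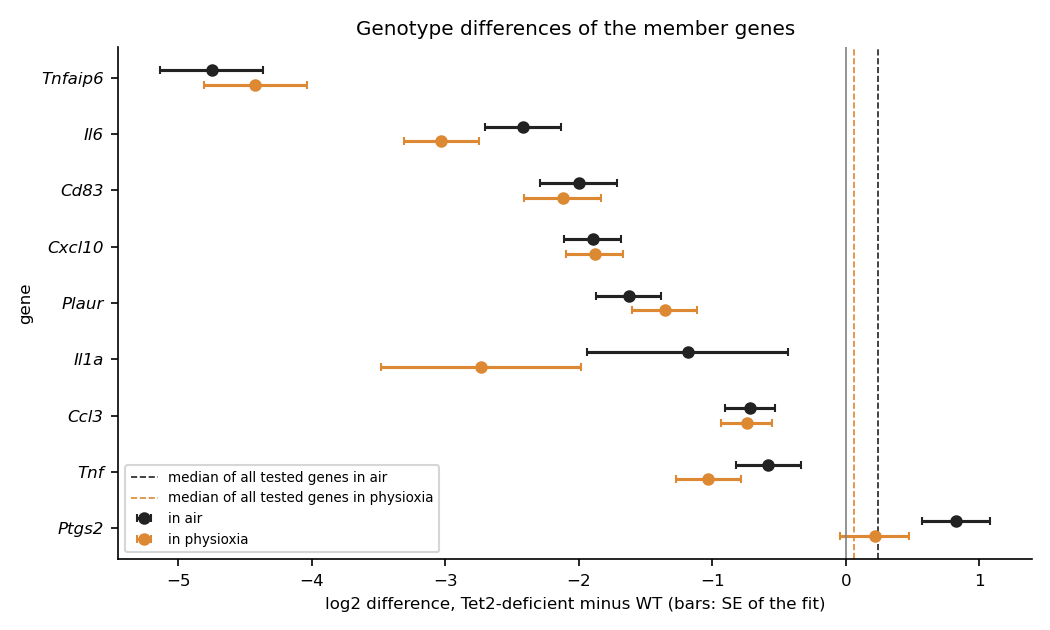
Difference between Tet2-deficient and WT cells for each gene on a log2 scale, in air (black) and physioxia (orange), with the SE of the fit as bars and dashed lines at the medians of all genes tested (0.24 and 0.06). Tnfaip6 lies farthest to the left at −4.75 and −4.42, and Ptgs2 is the gene to the right of 0.

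Promoter sequence is shown for 5 members. Il6, Cxcl10, Tnfaip6 and Plaur were lower in Tet2-deficient cells at both oxygen levels, and Ptgs2 was not. Windows of 270 bases, from 250 before to 20 after the RefSeq start site (build GRCm38.p6), were matched by symbol for 8 of the 9 members. They were searched on both strands for the kappa B motif of NF-kB (10 bases, known by that name), the AP-1 motif TGANTCA, the cyclic AMP response element (CRE) half-site ACGTCA and the interferon-stimulated response element (ISRE, 10 bases, also by name), and no matches of different motifs overlapped. Capitals mark the matches. The Tnfaip6 stretch is printed for its first 166 bases, since an annotated start lies further upstream. The stretches are chr5:30012864-30013133 on the plus strand for Il6, chr5:92348870-92349139 on the minus strand for Cxcl10, chr2:52037863-52038028 on the plus strand for Tnfaip6, chr7:24462233-24462502 on the plus strand for Plaur and chr1:150099781-150100050 on the plus strand for Ptgs2.
Il6: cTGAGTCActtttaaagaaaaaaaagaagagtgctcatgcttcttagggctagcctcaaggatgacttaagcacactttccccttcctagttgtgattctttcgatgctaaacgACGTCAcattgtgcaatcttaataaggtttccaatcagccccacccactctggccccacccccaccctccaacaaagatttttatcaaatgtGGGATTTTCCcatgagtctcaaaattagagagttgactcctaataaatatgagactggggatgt
Cxcl10: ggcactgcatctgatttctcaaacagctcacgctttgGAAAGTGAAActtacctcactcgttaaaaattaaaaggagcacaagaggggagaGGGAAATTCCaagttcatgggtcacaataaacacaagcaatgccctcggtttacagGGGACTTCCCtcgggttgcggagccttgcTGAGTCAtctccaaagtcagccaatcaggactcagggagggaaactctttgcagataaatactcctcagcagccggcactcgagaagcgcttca
Tnfaip6: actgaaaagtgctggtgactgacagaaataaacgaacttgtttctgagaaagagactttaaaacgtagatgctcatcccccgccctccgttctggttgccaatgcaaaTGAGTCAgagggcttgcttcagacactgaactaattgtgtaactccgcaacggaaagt
Plaur: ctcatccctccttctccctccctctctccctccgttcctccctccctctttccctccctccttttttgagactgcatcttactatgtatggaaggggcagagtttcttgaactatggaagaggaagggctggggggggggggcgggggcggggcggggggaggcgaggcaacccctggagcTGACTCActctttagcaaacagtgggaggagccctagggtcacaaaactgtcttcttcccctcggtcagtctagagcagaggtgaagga
Ptgs2: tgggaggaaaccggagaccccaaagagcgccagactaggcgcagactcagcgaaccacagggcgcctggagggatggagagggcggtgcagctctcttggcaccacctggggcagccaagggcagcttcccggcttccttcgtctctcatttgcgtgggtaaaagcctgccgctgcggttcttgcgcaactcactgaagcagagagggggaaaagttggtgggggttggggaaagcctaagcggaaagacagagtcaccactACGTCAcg
Il6 held an AP-1 match (TGAGTCA), a CRE half-site and a kappa B match (GGGATTTTCC) that began 44 bases before the start site. Cxcl10 held an ISRE match (GAAAGTGAAA), 2 kappa B matches (GGGAAATTCC and GGGACTTCCC) and an AP-1 match. Tnfaip6 and Plaur each held 1 AP-1 match, and Ptgs2 a CRE half-site just after its start. Over the members, AP-1 matches stood in 5 of 8 windows (the fifth is Il1a), kappa B in 2, CRE half-sites in 2 and ISRE in 1. Of all 32851 RefSeq windows of this length, 7.23% held an AP-1 match, 4.12% kappa B, 7.11% the CRE half-site and 3.21% ISRE. No match was found in the Tnf and Ccl3 windows, which are not printed although both genes were also called lower at both oxygen levels. Their lack of a match says only that these letters are not there. All 5 printed stretches hold a match, so they do not stand for every lower member. The matches are a description of sequence; binding was not measured.

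Il6 (ENSMUSG00000025746, GRCm38 chromosome 5, 30013114 to 30019981), the pleiotropic cytokine whose promoter is printed above, was low in every Tet2-deficient library. Its normalized counts, in the order of replicates 1 to 4, were 112, 91.6, 96.9 and 125 in WT air and 24.6, 24.3, 10.0 and 21.2 in Tet2-deficient air. In physioxia they were 135, 80.2, 94.4 and 124 in WT and 13.0, 11.9, 9.51 and 14.6 in Tet2-deficient cells. The highest Tet2-deficient library thus lay well under the lowest WT library, at 24.6 against 80.2. The means were 106 ± 15.2 against 20.01 ± 6.84 in air and 108 ± 25.2 against 12.3 ± 2.14 in physioxia (± SD, n = 4, as for all means here). The log2 difference was −2.42 ± 0.28 in air and −3.03 ± 0.28 in physioxia (limma adjusted p = 6.61e-06 and 6.33e-07). Of the reads themselves, 426 in WT air stood against 93 in Tet2-deficient air, a ratio of 5.23 after scaling by the size factors (95% interval 4.17 to 6.62, counting error only). In physioxia 443 stood against 46, a ratio of 8.56 (6.31 to 11.9).

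Il1a (ENSMUSG00000027399, chromosome 2, 129299610 to 129309972), the interleukin released as an alarm signal by damaged cells, was close to the detection limit. It stood at 15.4, 15.1, 1.10 and 2.87 in WT air and at 6.55, 4.34, 1.00 and 0 in Tet2-deficient air. In physioxia it stood at 22.4, 7.38, 13.6 and 13.7 in WT and at 2.36, 0, 1.36 and 1.72 in Tet2-deficient cells. The genotypes overlapped in air and did not overlap in physioxia. The log2 difference was −2.73 ± 0.75 in physioxia (limma adjusted p = 0.00546) and −1.22 with a pseudocount of 8, which also passed. Il1a passed the filter only through WT libraries, so these genotype differences are a description. In air the difference of −1.18 ± 0.75 did not pass (adjusted p = 0.148), and its size depended on which libraries were kept. It was −1.75 without WT air replicate 3 (adjusted p = 0.0454), −0.10 without Tet2-deficient air replicates 3 and 4 (adjusted p = 0.915), and 0.072 without WT air replicates 1 and 2 (adjusted p = 0.935). As reads, 57 in WT physioxia stood against 5 in Tet2-deficient physioxia, a ratio of 10.1 (95% counting interval 4.10 to 32.4), and 35 against 14 in air, a ratio of 2.86 (1.498 to 5.74). Its exons share 222 bases with Gm14023 on the opposite strand, and the counting strand is not given in the sources used here, so reads there cannot be told apart.

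Tnf (ENSMUSG00000024401, chromosome 17, 35199381 to 35202007), the cytokine that gives the TNF family its name, changed less. Its normalized counts were 1591, 1182, 858 and 824 in WT air and 651, 714, 956 and 599 in Tet2-deficient air, where replicate 3 lay above the 2 lowest WT libraries. In physioxia they were 1318, 772, 1255 and 994 in WT and 463, 619, 371 and 685 in Tet2-deficient cells, with no overlap. The log2 difference in physioxia was −1.03 ± 0.24 (limma adjusted p = 0.00227). In air it was −0.58 ± 0.24 (adjusted p = 0.0399), and this call ended in 9 of 28 alternatives. Leaving out WT air replicate 1 gave −0.39 (adjusted p = 0.143), and leaving out WT air replicate 2, or Tet2-deficient air replicate 1, 2 or 4, gave adjusted p values of 0.0844, 0.0800, 0.0639 and 0.100. Without WT air replicates 1 and 2 together it was −0.23 (adjusted p = 0.440), and without Tet2-deficient air replicates 3 and 4 the adjusted p was 0.0764. The other 2 were the replicate block over all groups (0.0558) and adjustment over all annotated genes (0.362).

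Ccl3 and Cxcl10 are chemokines, small secreted proteins that attract leukocytes, and Cxcl10 acts through Cxcr3. Ccl3 (ENSMUSG00000000982, chromosome 11, 83647844 to 83649355) stood at 4633, 2734, 2561 and 2960.0 in WT air and at 1821, 1644, 2113 and 2081 in Tet2-deficient air. In physioxia it stood at 4057, 2448, 2757 and 3229 in WT and at 1597, 2117, 2120.1 and 1575 in Tet2-deficient cells. The genotypes did not overlap at either oxygen level, and the log2 differences were alike, −0.72 ± 0.19 in air and −0.74 ± 0.19 in physioxia (limma adjusted p = 0.0045 and 0.00364). Cxcl10 (ENSMUSG00000034855, chromosome 5, 92346638 to 92348889), which interferons induce, differed more. It stood at 3304, 2090.0, 1863 and 1891 in WT air and at 563, 545, 757 and 547 in Tet2-deficient air. In physioxia it stood at 2779, 1619, 2683 and 1972 in WT and at 609.5, 648, 449.8 and 729 in Tet2-deficient cells. Every WT library thus lay above 1600 and every Tet2-deficient one at or under 757. Between genotypes the log2 difference was −1.89 ± 0.21 in air and −1.88 ± 0.21 in physioxia (limma adjusted p = 4.51e-06 and 5.08e-06). Its exons share 133 bases with Art3 on the opposite strand, whose reads cannot be told apart for the reason given for Il1a.

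Tnfaip6 (ENSMUSG00000053475, chromosome 2, 52038009 to 52056686), a secreted hyaluronan-binding protein induced by Tnf and interleukin 1, had the largest difference among the members. The WT air libraries had 212, 169, 146 and 185 normalized counts, and the Tet2-deficient air libraries 4.91, 13.9, 7.01 and 1.69. In physioxia they were 175, 227, 158 and 185 in WT and 10.6, 7.56, 5.44 and 7.74 in Tet2-deficient cells. This amounted to log2 differences of −4.75 ± 0.39 in air and −4.42 ± 0.39 in physioxia (limma adjusted p = 1.43e-07 and 3.51e-07). As reads, 715 in WT stood against 31 in Tet2-deficient cells in air, a ratio of 26.3 (95% counting interval 18.4 to 39.1), and 773 against 29 in physioxia, a ratio of 23.7 (16.4 to 35.6). No Tet2-deficient library was at 0, and the lowest held 2 reads. Tnfaip6 passed the filter mainly through WT libraries (8, beside 2 Tet2-deficient ones).

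Ptgs2 (ENSMUSG00000032487, chromosome 1, 150100031 to 150108227), the inducible cyclooxygenase that makes the precursor of the prostaglandins, moved the other way. It stood at 244, 181, 96.9 and 166 normalized counts in WT air and at 322, 313, 282 and 251 in Tet2-deficient air, every Tet2-deficient library above every WT one. In physioxia it stood at 239.5, 148, 149.9 and 269 in WT and at 219, 257, 182 and 255 in Tet2-deficient cells, and the groups overlapped. On the log2 scale the difference was 0.83 ± 0.26 in air (limma adjusted p = 0.0106), relative to an all-gene median of 0.24. In physioxia it was 0.22 ± 0.26 and did not pass (adjusted p = 0.465, 95% interval −0.33 to 0.76). The call in air ended with quantile normalization, at 0.58 (adjusted p = 0.0522), which moved the all-gene median in air from 0.24 to 0.12, and with adjustment over all annotated genes (adjusted p = 0.0959).

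Cd83 (ENSMUSG00000015396, chromosome 13, 43784775 to 43803132) encodes a surface protein of activated dendritic and B cells. It stood at 7729.7, 5931, 6144 and 6173 in WT air and at 2006, 2094, 1468 and 1099 in Tet2-deficient air. In physioxia it stood at 9415, 12684, 5408 and 6106 in WT and at 2320.0, 1834, 1074 and 2417 in Tet2-deficient cells, so the genotypes were far apart although WT physioxia spread widely (8403 ± 3346). The log2 difference was −2.00 ± 0.29 in air and −2.12 ± 0.29 in physioxia (limma adjusted p = 4.53e-05 and 2.69e-05). Plaur (ENSMUSG00000046223, chromosome 7, 24462484 to 24475968) encodes the membrane-anchored receptor of urokinase. It stood at 2247, 1826, 1465 and 2083 in WT air and at 919.9, 872, 393 and 436 in Tet2-deficient air. In physioxia it stood at 1147, 1173, 1189 and 1265 in WT and at 539, 382, 402 and 568 in Tet2-deficient cells. No Tet2-deficient library reached the lowest WT one at the same oxygen level. For Plaur the log2 difference was −1.63 ± 0.24 in air and −1.35 ± 0.24 in physioxia (limma adjusted p = 7.05e-05 and 0.000328). Within Tet2-deficient air, both genes were lower in replicates 3 and 4 than in replicates 1 and 2, and without that pair the air differences were −1.66 for Cd83 (adjusted p = 0.00164) and −1.07 for Plaur (adjusted p = 0.000717).

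Levels of different genes were compared per kilobase of exon. Ccl3 was highest in all 4 groups, at 4206 ± 1247 normalized counts per kb in WT air against 2499.6 ± 291 in Tet2-deficient air, followed by Cd83 at 2525 ± 323 and 648 ± 182. In WT air Cxcl10 (1016 ± 304), Plaur (728 ± 130.3) and Tnf (679 ± 218) came next, and the ranges of neighbours among these 3 overlapped. Tnfaip6 followed at 104 ± 16.2, then Il6 at 43.8 ± 6.27 and Ptgs2 at 37.6 ± 13.2, whose ranges overlapped, and Il1a was last at 4.36 ± 3.89. The order differed in Tet2-deficient air. Tnf (445 ± 96.2 per kb) followed Cd83 and lay above Cxcl10 (268 ± 45.6) with no overlap. Ptgs2 (63.8 ± 7.13 per kb) stood above Il6 (8.24 ± 2.82) and Tnfaip6 (4.02 ± 3.02) with no overlap, whereas Il6 and Tnfaip6 overlapped each other. The order in each genotype in physioxia had Ccl3 and Cd83 first and Il1a last as well, with Ccl3 and Cd83 overlapping in WT physioxia.

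Markers of other blood cells, which the enrichment is meant to remove, moved with genotype as well. Beside the counts given here, 37.4% of all genes tested were lower and 42.1% higher in air, and 33.6% and 35.9% in physioxia. Of 18 monocyte and macrophage markers 8 were in the table, and in air 7 were lower and 0 higher in Tet2-deficient cells. Their summed normalized count ranged from 29053 to 51054 in WT air and from 17129 to 22797 in Tet2-deficient air, and from 27755 to 50438 and from 16743 to 20255 in physioxia. Neutrophil markers were lower for 8 of the 9 measured in air (2222 to 11094 against 617 to 1482), basophil and mast cell markers for 6 of 8 (60189 to 101035 against 17993 to 28001), and T and NK cell markers for 11 of 13, with 1 higher (29706 to 34362 against 17888 to 25977). All 10 erythroid markers were higher in air (31808 to 49580 against 114001 to 287473). Of 6 dendritic cell markers 1 was higher and 2 lower in air (482 to 1872 against 571 to 789). In physioxia 5 of the 8 monocyte markers were lower, 8 of the 9 neutrophil markers (4977 to 13918 in WT against 1037 to 1953), 7 of the 8 basophil and mast cell markers (65746 to 104989 against 20116 to 26775) and 10 of the 13 T and NK cell markers, with 1 higher (27079 to 44122 against 18098 to 25950.4). In physioxia 8 of the 10 erythroid markers were higher (38096 to 69054 against 107938 to 270702), and of the dendritic cell markers 1 was higher and 3 lower (635 to 1967 against 638 to 819.9). The single B cell marker in the table was lower in physioxia (35.8 to 55.3 against 14.9 to 23.8) and did not pass in air, and the single stromal marker did not pass at either oxygen level. No marker in the table was at 0 throughout a group. Their part in the members' differences was not tested. WT air replicate 1 was the highest of its group for 8 of the 9 members, whereas replicate 2 was highest for 0 and lowest for 2. Replicates 1 and 2 of WT air had the highest mean monocyte marker levels (10.69 and 10.61 on the log2 scale against 9.76 and 9.81). The same held for neutrophil (9.21 and 8.48 against 7.72 and 7.38), T and NK cell (7.75 and 7.17 against 6.33 and 6.21), dendritic cell and B cell markers. It did not hold for the basophil and mast cell, erythroid, stromal or stem and progenitor lists. In WT physioxia the same 5 lists were highest in replicates 1 and 2, with monocyte levels of 10.65 and 10.36 against 9.98 and 9.79. There replicate 1 was highest for 5 members and lowest for 1, whereas replicate 2 was highest for 2 and lowest for 6.

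Oxygen made a smaller difference than genotype, and no member passed the test between physioxia and air. Among all genes, 5.76% were called in WT (4.91% higher and 0.851% lower in physioxia than in air), or 7.56% with the replicate block (6.43% higher and 1.13% lower), and 0% in Tet2-deficient cells. At an unadjusted p under 0.05, 1 member stood out in WT and 1 in Tet2-deficient cells, and edgeR and DESeq2 on the recovered reads also called 0 members in each. In WT cells 6 of 9 members lay within 1 SE of 0. Plaur lay farthest from 0 relative to its error: all 4 WT physioxia libraries (1147 to 1265) were under all 4 WT air libraries (1465 to 2247), a pattern that 3.16% of all genes had (7.82% had the opposite one). Its log2 difference of −0.66 ± 0.24 (95% interval −1.18 to −0.14) had an unadjusted p of 0.0162 and a limma adjusted p of 0.142, and 0.124 with the replicate block. It passed when only the WT libraries were fitted (adjusted p = 0.0363) and when Tet2-deficient air replicates 3 and 4 were left out (adjusted p = 0.0142). Il1a differed by 1.07 ± 0.75 (adjusted p = 0.468) and Cd83 by 0.30 ± 0.29 (adjusted p = 0.617), and neither passed.

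In Tet2-deficient cells the oxygen differences of Il6 (−0.60 ± 0.28), Tnf (−0.47 ± 0.24), Ptgs2 (−0.36 ± 0.26), Plaur (−0.39 ± 0.24) and Tnfaip6 (0.39 ± 0.39) were larger than their SE, and each had a limma adjusted p of 1. For Il6 the unadjusted p was 0.0488. No member had oxygen groups that did not overlap in these cells, where 1.42% of all genes lay wholly lower and 2.32% wholly higher in physioxia. Without Tet2-deficient air replicates 3 and 4, Plaur was lower in physioxia by a log2 difference of −0.94 (adjusted p = 0.0134), and the count of genes called over the whole table went from 0 to 152. The remaining 4 members lay within 1 SE of 0, with Cxcl10 at 0.01 ± 0.21 (95% interval −0.45 to 0.46) and Ccl3 at −0.06 ± 0.19 (−0.46 to 0.35).

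**Figure D3:**
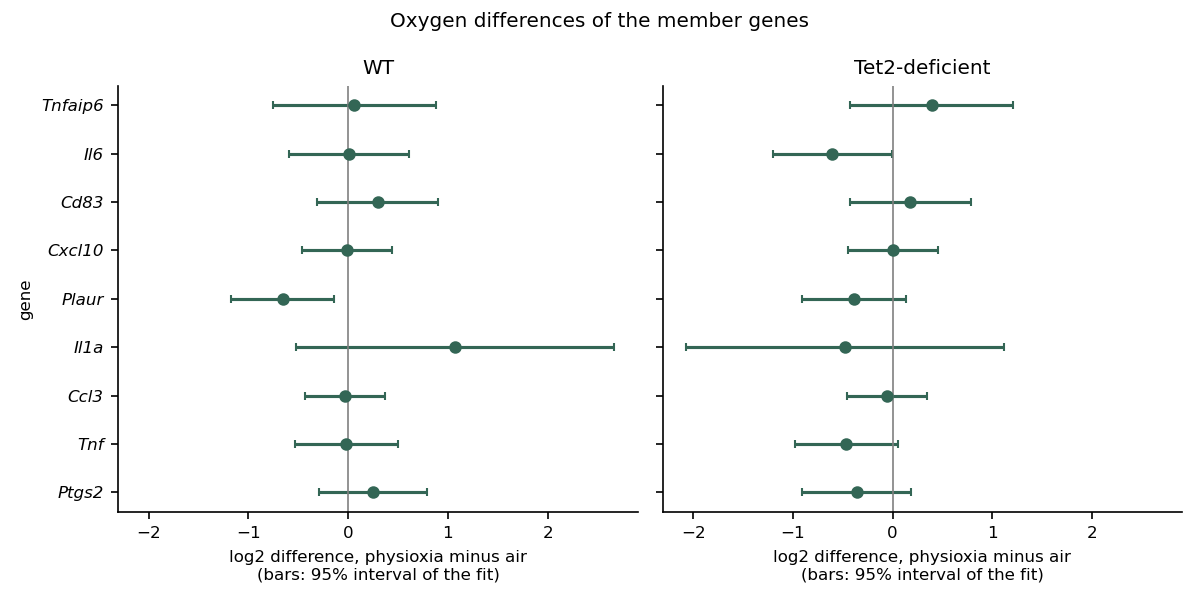
Difference between physioxia and air for each gene on a log2 scale, in WT cells (left) and Tet2-deficient cells (right), with 95% intervals of the fit as bars. Plaur in WT cells (−1.18 to −0.14) and, by a small margin, Il6 in Tet2-deficient cells have intervals that leave out 0, and neither passed the adjusted test.

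Whether the oxygen difference itself depended on genotype was tested as an interaction, in which 0 members and 0% of all genes passed. No member passed at an unadjusted p under 0.05, and edgeR and DESeq2 called 0 members. The largest values relative to their error were −0.61 ± 0.36 for Ptgs2 (limma adjusted p = 0.595), −0.61 ± 0.40 for Il6 (0.624), −1.55 ± 1.06 for Il1a (0.633) and −0.45 ± 0.34 for Tnf (0.671). For Ptgs2, which passed the genotype test in air alone, the 95% interval of the interaction ran from −1.38 to 0.16. A difference between its genotype effects in the 2 oxygen conditions is therefore not shown.

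The members were also compared with each other by the mean absolute difference, over the 16 libraries, of log2 levels centred on each gene's own mean. This is a description that small values in low-range genes favour, and it carries no test. Tnf and Ccl3 were closest at 0.263, followed by Cxcl10 and Cd83 at 0.347 and Cxcl10 and Plaur at 0.406. Ptgs2 and Tnfaip6 were farthest apart at 2.55. Outside the members, the genes most like each were Adora2b, Il11ra1 and Etnk2 for Il6 (0.298 to 0.332), and Paqr5, Ccr7 and Mobp for Il1a (0.656 to 0.669). Tent5c, Gadd45b and Iffo1 were most like Tnf (0.214 to 0.221), Snhg5, Riok3 and Nedd9 most like Ccl3 (0.170 to 0.182), and Rec8, Slc2a6 and Spp1 most like Cxcl10 (0.196 to 0.219). Tas1r1, Dnajb9 and Fam43a were nearest to Ptgs2 (0.219 to 0.224) and Gal, Eps8l1 and Zfp429 to Tnfaip6 (0.456 to 0.501). Lgmn, Cxcl16 and Pmaip1 were nearest to Cd83 (0.243 to 0.256) and Rnd1, Bhlhe40 and Zbtb21 to Plaur (0.206 to 0.259). The medians over all genes ran from 0.544 for Ptgs2 to 2.41 for Tnfaip6.

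**Figure D4:**
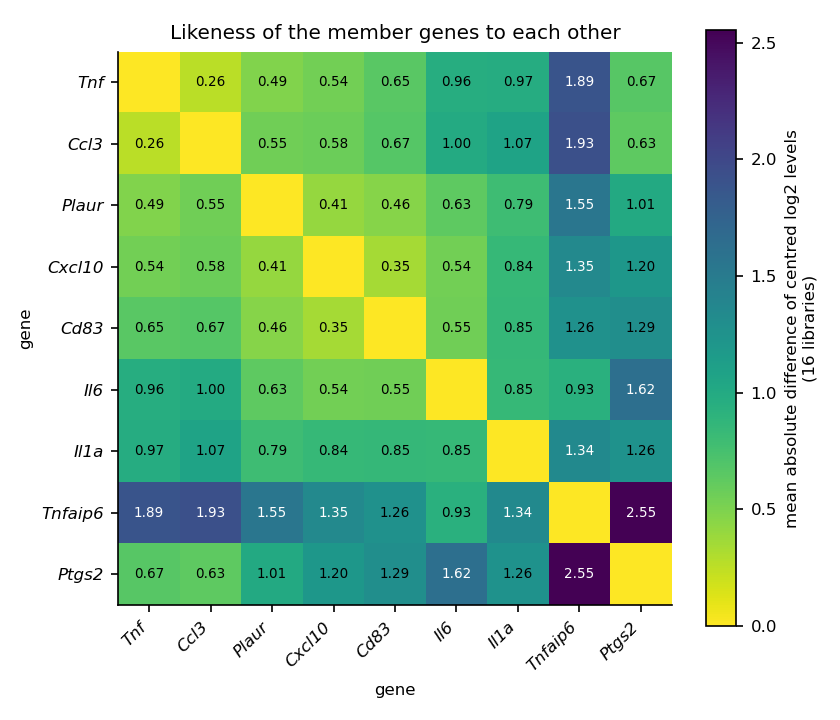
Mean absolute difference between the centred log2 levels of each pair of members over the 16 libraries, from yellow (alike) to dark blue (unlike), with the value in each cell. Tnf and Ccl3 form the closest pair (0.26), and the row of Tnfaip6 and the row of Ptgs2 hold the largest values, up to 2.55.

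Genes that act around the members were taken from 9 lists by function and are given as counts, with no test of a list. The shares over all genes tested, 37.4% lower and 42.1% higher in air and 33.6% and 35.9% in physioxia, stand beside each genotype count. Among 12 other cytokine genes tested, 6 were lower and 3 higher in Tet2-deficient cells in air, and 6 lower and 0 higher in physioxia. Csf1, the macrophage growth factor, had log2 differences of −2.00 ± 0.29 in air and −1.502 ± 0.29 in physioxia, and Lta, encoding lymphotoxin alpha, −2.39 ± 0.61 and −2.28 ± 0.61. Lta was low in Tet2-deficient libraries (2.36 to 12.0 normalized counts) and passed the filter mainly through WT libraries. Il12a and Il16 were lower by less, at −0.63 ± 0.12 and −0.69 ± 0.13 in air. Of 9 other chemokines 8 were lower and 0 higher at each oxygen level, with medians of −1.22 and −1.51. They included Cxcl16 (−1.55 ± 0.22 in air), Xcl1 (−2.89 ± 0.61), Ccl5 (−2.36 ± 0.44), which is also among the T and NK cell markers above, and Ccl24 (−1.22 ± 0.37), which did not pass without WT air replicates 1 and 2 (limma adjusted p = 0.0555). Ccl24 was near the detection limit, at 2.46 to 7.56 normalized counts in Tet2-deficient libraries. It passed the filter only through WT libraries, so its place among the lower chemokines is a description. The count of lower chemokines in air was 5 without Tet2-deficient air replicates 3 and 4, and also 5 without WT air replicates 1 and 2.

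Receptors of the members and their signal chains moved in both directions, 9 lower and 4 higher of 13 in air and 9 and 2 in physioxia. Il1r2, the decoy receptor of interleukin 1 and also one of the neutrophil markers, was at −3.01 ± 0.34 in air and −3.37 ± 0.34 in physioxia. Tnfrsf1a, the main receptor of Tnf, was at −0.72 ± 0.15 and −0.61 ± 0.15, and its adaptor Traf2 at −0.73 ± 0.13 and −0.71 ± 0.13. Ptger4, a receptor of the prostaglandin made downstream of Ptgs2, was higher at 0.94 ± 0.22 and 0.76 ± 0.22. Of 8 tested genes of prostaglandin and leukotriene synthesis, 4 were lower and 2 higher in air and 3 lower and 1 higher in physioxia. Alox5, which starts leukotriene synthesis, was at −1.23 ± 0.17 and −1.08 ± 0.17 and its partner Alox5ap at −0.54 ± 0.13 and −0.72 ± 0.13. Cbr1, a carbonyl reductase that acts on prostaglandins, was higher in air at 0.60 ± 0.16 and did not pass in physioxia (0.15 ± 0.16, limma adjusted p = 0.401) or, in air, without Tet2-deficient air replicates 3 and 4 (0.47, adjusted p = 0.0604). Ptges, the inducible prostaglandin E synthase, was at −0.63 ± 0.20 in air, where Ptgs2 was higher, and at −0.43 ± 0.20 in physioxia, which did not pass (limma adjusted p = 0.0588). Without Tet2-deficient air replicates 3 and 4, 2 genes of this list were lower and 0 higher in air, and Ptges did not pass (−0.41, adjusted p = 0.121), nor did it without WT air replicates 1 and 2 (adjusted p = 0.0566).

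**Figure D5:**
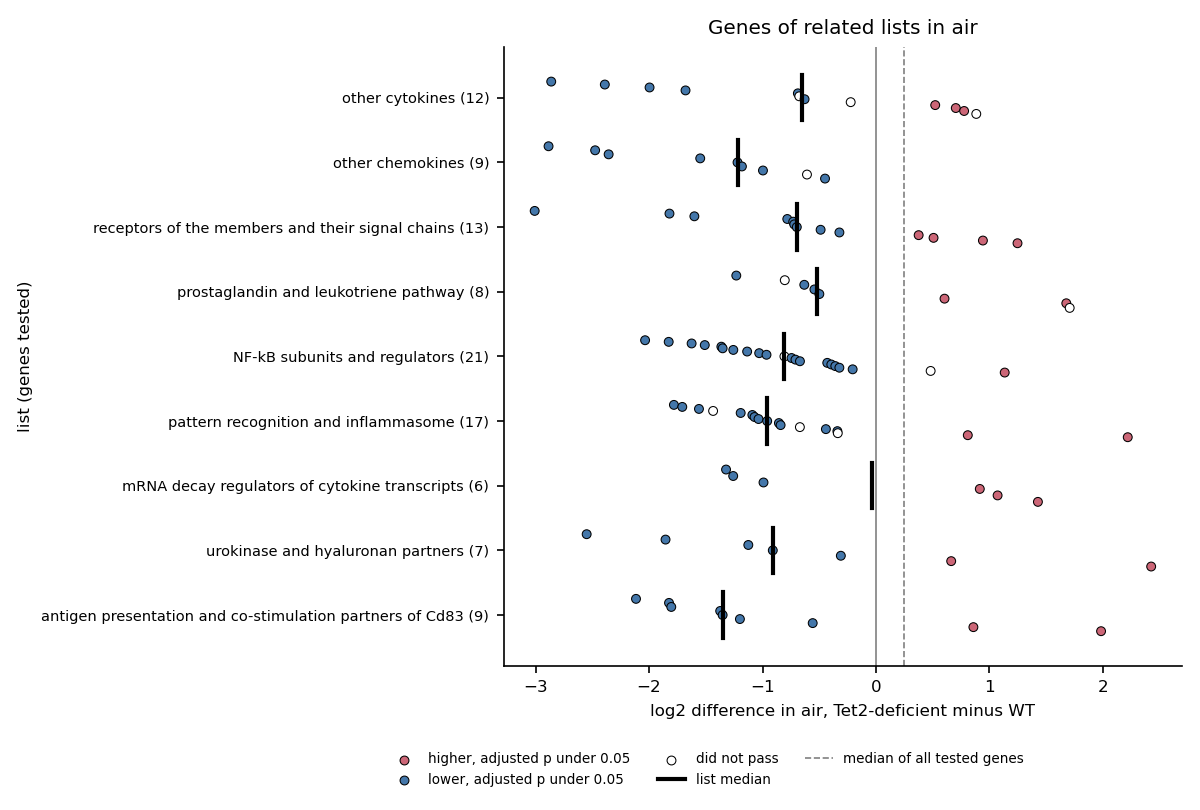
Difference between Tet2-deficient and WT cells in air on a log2 scale for every tested gene of 9 lists, with the number tested in brackets; red and blue points passed the test, open points did not, thick marks are list medians and the dashed line is the median of all genes (0.24). The 9 chemokines all lie left of 0, and the 6 mRNA decay regulators are split evenly.

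Of 21 NF-kB subunits and regulators, 18 were lower and 1 higher in air, and 15 lower and 0 higher in physioxia, with medians of −0.81 and −0.88. Nfkbib and Nfkbie, which encode inhibitors that hold NF-kB in the cytoplasm, were at −1.03 ± 0.08 and −1.62 ± 0.14 in air, and the NF-kB-induced genes Birc3 and Traf1 at −1.51 ± 0.16 and −2.04 ± 0.26. Chuk was the gene higher in air (1.13 ± 0.31), and it did not pass without Tet2-deficient air replicates 3 and 4 (0.35, limma adjusted p = 0.124). Of 17 pattern recognition and inflammasome genes 12 were lower and 2 higher in air, and 13 and 2 in physioxia. Clec4e and Tlr2, receptors of microbial lipids, were at −1.56 ± 0.15 and −1.71 ± 0.19 in air, the adaptor Traf6 at −0.84 ± 0.10 and the inflammasome sensor Nlrp3 at −1.78 ± 0.31. Without Tet2-deficient air replicates 3 and 4 the count was 9 lower and 0 higher.

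Of 6 regulators of cytokine messenger decay, 3 were lower and 3 higher in air, near the shares of all genes there, and 3 were lower and 1 higher in physioxia. Zfp36, which binds AU-rich elements and speeds the decay of Tnf messenger, was higher at 0.92 ± 0.26 in air and 1.18 ± 0.26 in physioxia. Zc3h12a, a nuclease that degrades Il6 messenger, was lower at −1.32 ± 0.25 and −1.06 ± 0.25, and its relative Zc3h12c at −0.99 ± 0.24 and −0.74 ± 0.24, the latter not passing without WT physioxia replicate 1 (limma adjusted p = 0.0526). Arid5a, which protects Il6 messenger from decay, was lower at −1.26 ± 0.14 and −1.18 ± 0.14. Of 7 urokinase and hyaluronan partners of Plaur and Tnfaip6, 5 were lower and 2 higher in air and 2 and 2 in physioxia, and without WT air replicates 1 and 2 the count in air was 2 lower and 2 higher. In air the plasminogen activator Plat was at −2.55 ± 0.51, the integrin chain Itgb2 at −1.13 ± 0.20, the integrin chain Itgb1 at 0.66 ± 0.16 and the hyaluronidase Hyal2 at 2.43 ± 0.32. Of 9 antigen presentation and co-stimulation partners of Cd83, 7 were lower and 2 higher in air and 6 and 1 in physioxia, and without WT air replicates 1 and 2 the count in air was 3 lower and 2 higher. Cd80, a co-stimulatory ligand, was at −1.80 ± 0.41 in air, the adhesion molecule Icam1 at −1.20 ± 0.22 and the NF-kB subunit Relb at −1.35 ± 0.29, while Pdcd1lg2, an inhibitory ligand, was at 1.98 ± 0.41.

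Between physioxia and air in WT cells, where 4.91% of all genes were called higher and 0.851% lower, 4 genes of these lists passed, all higher in physioxia. They were Ptges2, a prostaglandin E synthase (2.98 ± 0.59, limma adjusted p = 0.0114), Chuk (1.77 ± 0.31, adjusted p = 0.00955), the death receptor kinase Ripk1 (1.23 ± 0.33, adjusted p = 0.0390) and the cytokine Tgfb1 (1.52 ± 0.42, adjusted p = 0.0464). Ptges2 spread from 286 to 2435 normalized counts in WT physioxia and from 76.5 to 142 in WT air. Without WT air replicates 1 and 2 none of the 4 passed (adjusted p from 0.127 to 0.240). Over 29 alternatives the call was kept in 14 for Tgfb1 and 15 for Ripk1, with adjusted p up to 0.422 and 0.354, and in 27 each for Ptges2 and Chuk. Leaving out any 1 of WT air replicates 1, 2 and 4, or any 1 of the 8 physioxia libraries, ended the calls of Tgfb1 and Ripk1. In Tet2-deficient cells and in the interaction, 0 genes of the 9 lists passed.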

How the data were processed

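The table deposited by the authors holds a signal per gene and library: read counts divided by 1 size factor per library, named there as DESeq2-normalized. FastQC, cutadapt, STAR, HTSeq, DESeq2 and the build GRCm38 are named in the submitters' processing notes, with no versions or roles. Dividing by the step that 1 read is worth gave whole numbers (tolerance 0.01) for 100% of deposited values, which returned the reads. Symbols were matched by identifier to GENCODE M21 for 6278 of 6288 genes. No 2 libraries held identical values, and 0 columns were left unused.

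For 6110 genes, limma 3.58.1 under R 4.3.3 was run on log2(normalized count + 1) with a variance trend, 1 mean per group and no covariate. P-values were adjusted by the Benjamini-Hochberg method over all of them, and the threshold was 0.05. Code was tested on simulated data. Alternatives were edgeR 4.0.16 and DESeq2 1.42.0 on the recovered reads, pseudocounts of 0.5 and 8, no filter or a minimum of 50, quantile normalization, fits on the groups compared, a replicate block, adjustment over all 55450 annotated genes, and leaving out libraries. Same-numbered WT air and physioxia libraries deviated together over the 6110 genes (r = 0.33, 0.18, 0.16 and 0.33), and the protocol divides each preparation, so these numbers pair the WT samples.

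The members, lists and rules were chosen with earlier results of these data known. The text names all members, in each list the up to 4 genes with the smallest p in air and the 1 passing an oxygen test with the smallest p, and the 3 genes most like each member.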

Additional observations from a re-analysis of the deposited data

Results flagged for a closer look

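Normalized counts of the 9 members were checked in 36 groups of 4 libraries for a library far from the other 3, by comparing its gap to the nearest one with the whole range of the group. Chance marks about 1 group in 20 in this way, and 3 groups were marked. WT air replicate 1 stood high for Cxcl10, at 3304 against 1863 to 2090.0 (share of the range 0.843), and for Cd83, at 7729.7 against 5931 to 6173 (0.866). Tet2-deficient air replicate 3 stood high for Cxcl10, at 757 against 545 to 563 (0.916). None of these libraries brought the genotypes to overlap for Cxcl10 or Cd83.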

How the results depend on the processing

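Il6, Ccl3, Cxcl10, Tnfaip6, Cd83 and Plaur kept their direction and their call between genotypes in all 28 alternatives at either oxygen level, with Il6 from −2.75 to −2.06 in air and Tnfaip6 from −5.15 to −3.70. The count of members called stayed between 6 and 9 in air and between 7 and 8 in physioxia. The air difference of Il1a turned to 0.072 without WT air replicates 1 and 2. The oxygen difference of Tnfaip6 in Tet2-deficient cells turned to −0.041 without Tet2-deficient air replicate 4 (−0.041 to 0.78 with 1 library left out) and to −0.12 without replicates 3 and 4, a pair of libraries, like that of WT air, left out together after seeing the data. Members called between physioxia and air became 1 in WT with only the WT libraries and 1 in each genotype without Tet2-deficient air replicates 3 and 4, Plaur each time. Genes called in the whole table in air fell from 4858 to 2434 with the adjustment over all annotated genes and to 2760.0 without Tet2-deficient air replicates 3 and 4, and in physioxia from 4243 to 2477 with that adjustment. Between physioxia and air in WT the count of 352 became 548 with DESeq2, 0 with that adjustment, 0 without WT air replicates 1 and 2, and 128 to 554 with 1 library left out. In Tet2-deficient cells the count of 0 became 1 with a pseudocount of 8, 1 with the replicate block over all groups, 8 with DESeq2, 152 without air replicates 3 and 4, and 0 to 1 with 1 library left out. For the interaction it became 11 with DESeq2 and 0 to 1 with 1 library left out. The cause was not tested, except that fewer libraries or a larger family of tests also lower a count. The Tet2-deficient numbers did not pair the libraries (same-numbered r = 0.32, −0.27, 0.04 and −0.01), and the highest r of any pair of libraries compared was 0.50, between air replicate 3 and physioxia replicate 2. With the replicate block within genotype, 462 genes were called between physioxia and air in WT, 0 in Tet2-deficient cells and 0 for the interaction, with 0 members in each. The block over all groups, which ties equal numbers of different animals across genotypes, ended the call of Tnf in air (limma adjusted p = 0.0558) and of no other member. Il1a, with 0 to 19 reads per library, is limited by depth. It has no value with a minimum of 50. Fits on only the groups compared do not exist for the interaction.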
